A study of Homo sapiens with 6 samples.

Results

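The 10 genes described here encode lymphoid transcription factors of the ETS, RUNX and MYB families and a RUNX partner. They were taken by symbol from the 61541 genes of the count table, as a list drawn up with earlier results of these data known, and comprise ETS1, ETS2, FLI1, ELF1, GABPA, RUNX1, RUNX2, RUNX3, CBFB and MYB. H9, an established human line of cutaneous T-cell lymphoma (CTCL) with wild-type genotype in the labels, was profiled by bulk RNA-seq in 3 libraries treated with vehicle (DMSO) and 3 treated for 4 h with AZD4573 (50 nM), a selective inhibitor of CDK9. CDK9 is the kinase that releases paused RNA polymerase II into elongation. As a single line, H9 gives the response of these cells and not of T-cell lymphomas in general, and the labels do not say that replicates were separate cultures, so that p-values measure the spread between these libraries, which may be technical.

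ETS proteins share a DNA-binding domain that recognises a GGAA core, and in T cells ETS1, FLI1, ELF1 and GABPA are known to act at genes of the T-cell receptor and of cytokine receptors. RUNX proteins bind DNA through the Runt domain together with CBFB, a partner that does not itself touch DNA and raises their affinity, and RUNX1 and RUNX3 are known for their part in the CD4 and CD8 lineage choice. MYB is required for T-cell development and is a known oncogene in T-cell leukemia. As factors of this kind set the expression of many lymphoid genes, the level of their own transcripts upon CDK9 antagonism was examined.

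Total counts ranged from 70367303 to 76571157 under DMSO and from 52101868 to 63795185 under AZD4573. Of the T-cell markers listed, CD3D, CD3E, CD3G, CD247 and LCK were abundant, CD28 and CD4 were low (CD4 at 3.83 ± 0.215 CPM (SD, n = 3) with DMSO) and CD2 was near 0. The 8 T-cell markers summed to between 831 and 867 CPM (counts scaled to a common library total) with DMSO and between 1010 and 1020 CPM with AZD4573. Of the B-cell markers, CD79A was at 57.8 ± 2.96 CPM with DMSO and 93.6 ± 4.99 CPM with AZD4573 (SD, n = 3), while MS4A1 (mean of 0.192 CPM with DMSO) and PAX5 (0.0127 CPM) were near 0. The 4 myeloid markers summed to at most 0.649 CPM and the 3 erythroid markers to at most 0.0526 CPM in any library. The 4 fibroblast or keratinocyte markers summed to between 3.6 and 7.43 CPM, carried by COL1A1. The part of these marker differences in the results below was not tested. In bulk RNA, fewer cells and less RNA per cell cannot be told apart.

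All 10 genes passed the filter on low counts, among 17678 genes tested with edgeR's quasi-likelihood test. Changes are log2 fold changes (log2FC) of AZD4573 over DMSO after TMM scaling, given with their standard error (SE), and adjusted p-values are by the Benjamini-Hochberg method over all genes tested. With an adjusted p under 0.05, 6 of the 10 genes were lower (FLI1, ELF1, RUNX1, RUNX3, CBFB and MYB), against 37.4% of all genes tested, and 1 was higher (ETS1), against 37.3%. With a fold change of at least 1.5 in addition, only MYB remained, against 23.7% of all genes called lower and 22.7% called higher. The median change over the 10 genes was -0.37, where the median of all genes tested was 0.03. Without regard to fold, 74.7% of all genes tested passed in either direction. The libraries of the groups did not overlap for the same 7 genes, with AZD4573 below DMSO for 6 of them (38.7% of all genes tested) and above it for ETS1 (39% of all genes tested). Thus 6 of the 7 genes that passed the test moved by less than 1.5-fold.

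Because TMM scaling sets the libraries against each other by their own counts, these values describe the place of a transcript among all others and not its amount per cell. The 13 mRNAs of the mitochondrial genome, which RNA polymerase II does not transcribe, made up between 3.04% and 3.22% of the counts with DMSO and between 4.67% and 4.98% with AZD4573. Scaling to these mRNAs takes their own amount as unchanged by AZD4573, which was not tested. It moved the median of all genes to -0.71 and turned ETS1, the gene with the positive change, to -0.43 (adjusted p = 1.7e-06). In the plot of both scalings, all 10 genes lie below 0 when scaled to these mRNAs. With a fold change of at least 1.5, 9 of the 10 genes were then lower, against 53.4% of all genes tested, and 0 were higher, against 10%.

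Promoter sequences were taken from RefSeq (GRCh38.p14), in which 7 of the 10 genes matched, with 12 windows in all. ETS1, FLI1 and CBFB were not among them. Each window holds 250 bases before a start site and 50 after it, and was searched on both strands for CCGGAA (ETS), TGTGGT (RUNX) and TAACNG (MYB). Of all 35116 windows, 17.2% hold the ETS motif, 13.1% the RUNX motif and 20.8% the MYB motif. The most upstream starts of RUNX2 and RUNX3 each carry a pair of RUNX motifs within 12 bases on the same strand, a feature of 0.0883% of all windows. The pair and its limit of 12 bases were not part of the planned motif search, so this share is a description and not a test. The RUNX2 pair lies after the start, at 17 and 25, and the RUNX3 pair before the start, at -131 and -123. RUNX1 has a single window, at a start inside its gene, so its more upstream starts were not searched. The pairs are shown here on the strand of the gene with the reverse complement of the motif in capitals, as both paralogs hold one (RUNX2 at chr6:45328340-45328369, plus strand, and RUNX3 at chr1:24965118-24965147, minus strand).
RUNX2: caaacaACCACAgaACCACAagtgcggtgc
RUNX3: ccctcaACCACAgaACCACAaggccaggcc
The RUNX2 window holds 4 RUNX motifs in all, and the windows at the downstream starts of both genes hold none. The other RUNX motif lay in the upstream window of ETS2, at -240 from the start. MYB motifs were found in the downstream window of ETS2, at -1 from the start, and in 1 of the 3 windows of ELF1, at -242 and -63 from the start. Counts per gene do not tell which start was used.

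The ETS motif was found once in the GABPA window, 65 bases before the start, and once in that of RUNX1, 104 bases before the start. Shown are the 250 bases before each start with the motif in capitals, as both promoters hold a motif bound by members of the same list, followed by the 250 bases before the MYB start, as MYB had the largest change of the 10 genes. The MYB window holds none of the 3 motifs, which says only that these letters are not in this window. The positions are chr21:25734722-25734971 (plus strand), chr21:34888700-34888949 (minus strand) and chr6:135181058-135181307 (plus strand).
GABPA: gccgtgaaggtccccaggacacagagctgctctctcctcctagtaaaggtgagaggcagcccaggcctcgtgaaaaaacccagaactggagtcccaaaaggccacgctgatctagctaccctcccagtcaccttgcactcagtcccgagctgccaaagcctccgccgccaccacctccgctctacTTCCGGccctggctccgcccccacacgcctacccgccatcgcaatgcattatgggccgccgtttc
RUNX1: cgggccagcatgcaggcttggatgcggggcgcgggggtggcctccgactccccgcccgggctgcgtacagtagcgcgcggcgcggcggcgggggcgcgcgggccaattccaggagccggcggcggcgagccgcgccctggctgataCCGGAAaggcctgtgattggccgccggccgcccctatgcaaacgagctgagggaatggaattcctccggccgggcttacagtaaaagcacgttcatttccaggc
MYB: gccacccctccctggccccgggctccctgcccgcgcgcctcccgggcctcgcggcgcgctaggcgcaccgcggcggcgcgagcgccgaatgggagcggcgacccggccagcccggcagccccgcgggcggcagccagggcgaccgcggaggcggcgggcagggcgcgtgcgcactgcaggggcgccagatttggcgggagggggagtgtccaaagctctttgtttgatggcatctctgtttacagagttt
GC content was 71% in the MYB window, 72% in that of RUNX1 and 62.7% in that of GABPA, against a median of 58.7% over all windows. The upstream window of RUNX2 was poorer in GC (42.7%) than that of RUNX3 (66.3%).

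MYB (ENSG00000118513), on chromosome 6 of GRCh38 from 135181308 to 135219173, fell the most of the 10 genes. Its level was 394, 411 and 393 CPM under DMSO and 178, 183 and 174 CPM under AZD4573. The groups are far apart relative to their spread, with means of 399 ± 10.5 and 179 ± 4.51 CPM (SD, n = 3). AZD4573 over DMSO gave a log2FC of -1.16 ± 0.0408 (SE) at an adjusted p = 5.9e-11, which is a 2.23-fold decrease and lies at percentile 11 of the changes of all genes tested. With each library left out in turn it stayed between -1.18 and -1.15. Its exons share 103 of 5497 bases with MYB-AS1 on the opposite strand, which had at most 15 counts in a library.

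The RUNX partner CBFB (ENSG00000067955, chromosome 16 from 67028984 to 67101058) was lower upon AZD4573 treatment. It was at 217, 228 and 218 CPM with DMSO and at 158, 144 and 149 CPM with AZD4573, with no overlap between the groups. This gave a log2FC of -0.56 ± 0.045 (SE) at an adjusted p = 8.9e-08, a decrease of 1.47-fold that lies just under the fold threshold. Without AZD4573 replicate 1, CBFB passed that threshold.

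RUNX3 (ENSG00000020633, chromosome 1 from 24899511 to 24965121), a factor of CD8 and cytotoxic T cells, was the most abundant of the 3 RUNX transcripts. Its level was 497, 471 and 457 CPM under DMSO and 316, 340 and 345 CPM under AZD4573, which are all below those with DMSO. AZD4573 over DMSO gave a log2FC of -0.51 ± 0.0472 (SE) at an adjusted p = 3.5e-07, or 1.42-fold lower. RUNX1 (ENSG00000159216), which spans 1216867 bases of chromosome 21 from 34787801 to 36004667, is a regulator of early T-cell development. It was at 39.6, 42.3 and 43.2 CPM with DMSO and at 31.8, 35.2 and 34.6 CPM with AZD4573. All AZD4573 libraries again lay below all DMSO libraries, with a smaller log2FC of -0.30 ± 0.0583 (SE) at an adjusted p = 0.00038.

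RUNX2 (ENSG00000124813, chromosome 6 from 45328157 to 45664349), best known as the master factor of bone formation, was the least abundant of the 10 genes. Its values of 9.8, 10.4 and 10.1 CPM with DMSO overlapped with 9.67, 9.18 and 9.98 CPM with AZD4573. A log2FC of -0.07 ± 0.0776 (SE) at an adjusted p = 0.4 did not exceed the spread between libraries. Thus RUNX1 and RUNX3 were lower and RUNX2 did not pass the test. Whether the RUNX genes differ in response was examined through their shares.

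Shares within a family do not depend on how libraries are scaled to each other. Per kb of exon, RUNX3 made up 96.4%, 96% and 95.9% of RUNX transcripts under DMSO and 95.2%, 95.3% and 95.3% under AZD4573. RUNX2 went from 1.23 ± 0.0767% to 1.65 ± 0.103% and RUNX1 from 2.67 ± 0.221% to 3.06 ± 0.055% (SD, n = 3). These 3 shares were separated between the groups, and each reached p = 0.1 in a two-sided exact permutation test (adjusted p = 0.15 over 9 ratios), which is the smallest p that 3 against 3 libraries allow. The RUNX1 share depends on the length used, as it was 5.83 ± 0.466% with DMSO and 6.62 ± 0.116% with AZD4573 (SD, n = 3) per kb of the canonical transcript, a length chosen after seeing the data.

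RUNX proteins act as dimers with CBFB, so the sum of the 3 RUNX transcripts was set against CBFB in each library. The ratio was 2.24, 2.04 and 2.07 with DMSO and 1.98, 2.34 and 2.3 with AZD4573, per kb of exon. The values overlapped, and the difference of means of 0.0923 did not exceed the spread (p = 0.5, two-sided exact permutation test). RUNX3 and CBFB had both fallen, by 1.42-fold and 1.47-fold. A change of the ratio of summed RUNX to CBFB transcripts was not detectable with these libraries. The plot of composition shows these ratios beside the shares of the ETS factors.

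**Figure D1:**
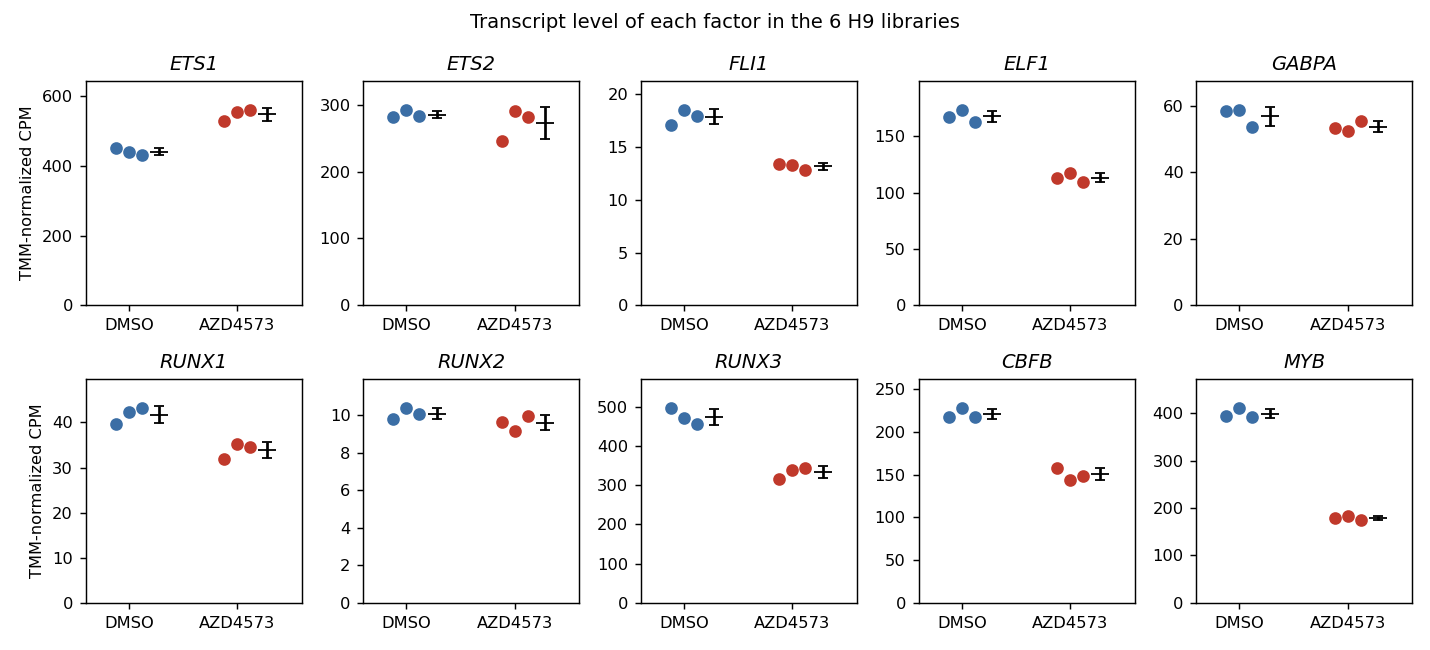
TMM-normalized CPM (y axis, from 0) of each of the 10 genes in the 3 DMSO (blue) and 3 AZD4573 (red) libraries, with the mean and SD of each group beside the points in black. The groups are separated for ETS1 (AZD4573 above) and for FLI1, ELF1, RUNX1, RUNX3, CBFB and MYB (AZD4573 below), and overlap for ETS2, GABPA and RUNX2.

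Among the ETS factors, ETS1 (ENSG00000134954, chromosome 11 from 128458761 to 128587558), a factor of lymphocyte development and function, rose in place among all transcripts. Its level was 451, 440 and 432 CPM with DMSO and 528, 556 and 560 CPM with AZD4573, so that the groups do not overlap. This gave a log2FC of 0.31 ± 0.0413 (SE) at an adjusted p = 1.1e-05, an increase of 24.3% under TMM scaling that turned to a decrease when scaled to the mitochondrial mRNAs. FLI1 (ENSG00000151702, from 128686535 to 128813267), its neighbour on the same chromosome and the ETS partner in the fusion of Ewing sarcoma, went the other way.

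FLI1 was at 17.1, 18.5 and 18 CPM under DMSO and at 13.4, 13.3 and 12.8 CPM under AZD4573. The AZD4573 libraries were all lower, with a log2FC of -0.44 ± 0.0656 (SE) at an adjusted p = 4.1e-05. Of its 8026 exon bases, 329 are shared with genes on the opposite strand. These are SENCR, which had 1 count over the 6 libraries, and ENSG00000245008, which had 0.

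ELF1 (ENSG00000120690, chromosome 13 from 40931924 to 41061440), a factor of the ELF subfamily expressed in lymphoid cells, was at 167, 173 and 163 CPM with DMSO and at 113, 117 and 109 CPM with AZD4573. The groups are separated by a wide gap. AZD4573 over DMSO gave a log2FC of -0.57 ± 0.0439 (SE) at an adjusted p = 5.8e-08, a decrease of 1.48-fold, again just under the threshold. ELF1 passed the threshold without DMSO replicate 3 and also without AZD4573 replicate 2. WBP4, a spliceosome-associated gene that starts 69 bases from the most upstream start of ELF1 on the opposite strand, was also lower, from 26.8 ± 1.72 to 15.4 ± 1.31 CPM (SD, n = 3) with a log2FC of -0.80 at an adjusted p = 3.7e-07.

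ETS2 (ENSG00000157557, chromosome 21 from 38805183 to 38824955), the closest paralog of ETS1, did not pass the test. Its values of 282, 292 and 283 CPM with DMSO overlapped with 246, 291 and 282 CPM with AZD4573, where replicate 1 lay below the others. This gave a log2FC of -0.07 ± 0.0552 (SE) at an adjusted p = 0.3, and without AZD4573 replicate 1 it was 0.00 (adjusted p = 0.99). Its exons share 112 of 4977 bases with ENSG00000205622 on the opposite strand, which had 29 counts over all libraries.

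GABPA (ENSG00000154727, chromosome 21 from 25734570 to 25772460) is the DNA-binding subunit of the GABP complex and regulates genes of mitochondrial respiration. It was at 58.4, 58.7 and 53.6 CPM with DMSO and at 53.4, 52.5 and 55.5 CPM with AZD4573, and the groups overlap. AZD4573 over DMSO gave a log2FC of -0.08 ± 0.0521 (SE) at an adjusted p = 0.18. GABPA shares 692 of 5742 exon bases with ATP5PF, a subunit gene of ATP synthase on the opposite strand. ATP5PF was higher, from 67.4 ± 3.35 to 92.3 ± 3.16 CPM (SD, n = 3) with a log2FC of 0.45 at an adjusted p = 2.1e-06, and its part in the GABPA counts was not tested.

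**Figure D2:**
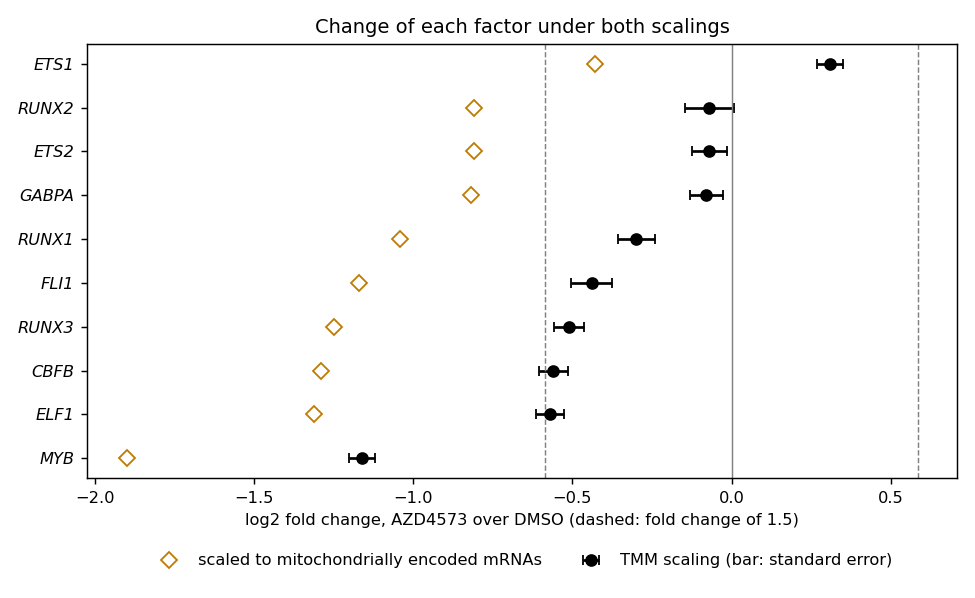
Log2 fold change of AZD4573 over DMSO (x axis) for each of the 10 genes (y axis), under TMM scaling with the standard error (black) and scaled to the 13 mitochondrially encoded mRNAs (open diamonds). MYB at -1.16 is the only gene beyond the dashed line of 1.5-fold under TMM, and all 10 genes are below 0 under the mitochondrial scaling, from -1.90 for MYB to -0.43 for ETS1.

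The composition of the 5 ETS factors does not depend on the scaling, and its largest shift was in ETS1 and ELF1. Per kb of exon, ETS1 made up 37.2%, 35.8% and 36.5% of these transcripts under DMSO and 46.3%, 44.9% and 45.9% under AZD4573. The share of ELF1 was 22.1%, 22.6% and 22.1% with DMSO and 15.9%, 15.2% and 14.4% with AZD4573. That of FLI1 went from 1.32 ± 0.0526% to 0.981 ± 0.0593% (SD, n = 3). For ETS1, ELF1 and FLI1 the groups were separated, and each share had p = 0.1 in the exact permutation test, the smallest that the design allows (adjusted p = 0.15 over the 9 ratios). The shares of ETS2, at 34 ± 0.535% and 32.6 ± 1.44% (SD, n = 3), and of GABPA, at 5.87 ± 0.198% and 5.58 ± 0.278% (SD, n = 3), did not separate (p = 0.2 and p = 0.3, exact permutation test). The ETS1 share was 9.15 percentage points higher with AZD4573, and 9.14 points higher per kb of the canonical transcript.

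**Figure D3:**
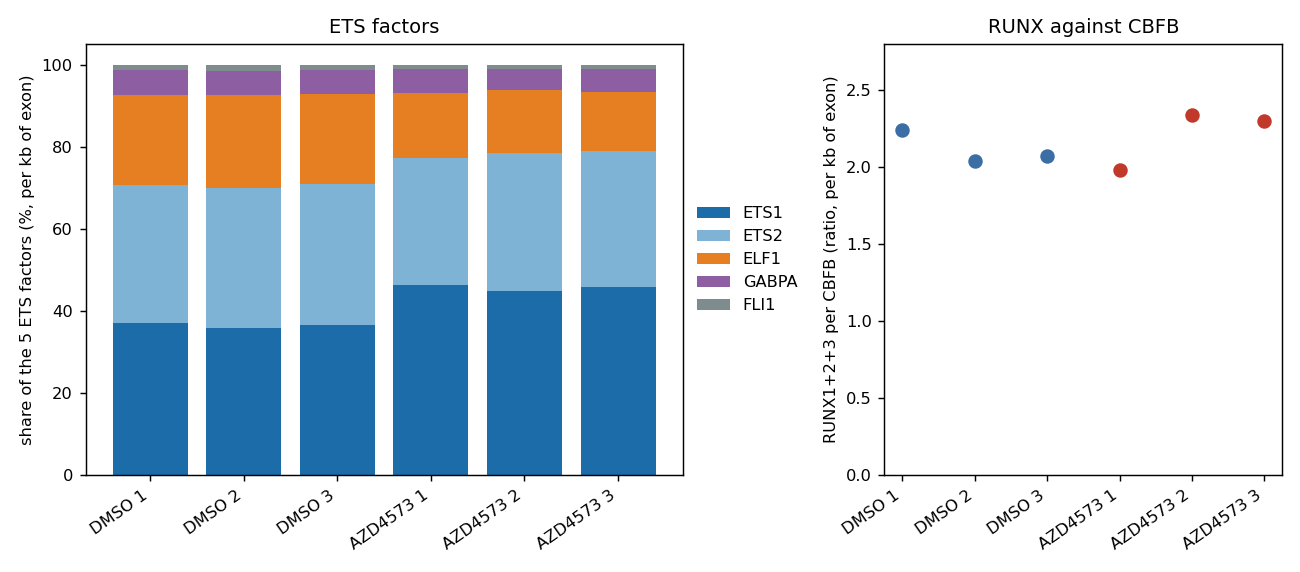
Left, share of each of 5 ETS factors in their summed transcripts per kb of exon (y axis, %) in each library, where ETS1 takes 36.5% on average with DMSO and 45.7% with AZD4573 and ELF1 takes 22.3% and 15.2%. Right, ratio of the summed RUNX1, RUNX2 and RUNX3 transcripts to CBFB per kb of exon (y axis, from 0) in each library, with DMSO in blue and AZD4573 in red, where the 6 libraries lie between 1.98 and 2.34 and the groups overlap.

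Levels of different genes were compared per kb of exon. With DMSO, RUNX3 ranked first at 96.5 ± 4.07 CPM per kb (SD, n = 3), followed by MYB at 72.6, ETS1 at 61.7, ETS2 at 57.4, CBFB at 47.5, ELF1 at 37.7, GABPA at 9.91, RUNX1 at 2.68, FLI1 at 2.22 and RUNX2 at 1.24 CPM per kb. No neighbours in this order overlapped in their libraries. RUNX3 lay at percentile 98.1 of all tested genes per kb of exon and RUNX2 at percentile 40.4. With AZD4573, ETS1 moved to the first place at 76.7 ± 2.41 CPM per kb (SD, n = 3), ahead of RUNX3 at 67.8 and ETS2 at 54.9 CPM per kb. MYB, at 32.5 CPM per kb, then overlapped with CBFB at 32.3 CPM per kb. Per kb of the canonical transcript, RUNX3 (111 CPM per kb) and MYB (108 CPM per kb) overlapped with DMSO, as did RUNX3 and ETS2 with AZD4573.

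The other genes of the ETS and MYB families moved in both directions, at shares near those of all genes. Of 25 listed, 17 were tested and 8 were too low, among them ERG, SPI1 and SPIC. At an adjusted p under 0.05, 7 were lower and 8 higher (37.4% and 37.3% of all genes tested), and the median log2FC was 0.11. With a fold change of at least 1.5, 5 were lower and 5 higher (23.7% and 22.7% of all genes), and scaled to the mitochondrial mRNAs 9 were lower and 2 higher (53.4% and 10% of all genes). ELF2, the close paralog of ELF1, went from 43.2, 41.7 and 40.4 CPM with DMSO to 19.5, 20.5 and 19.8 CPM with AZD4573, for a log2FC of -1.06 ± 0.0549 (SE) at an adjusted p = 1.2e-09. ETV7, at 1.02 ± 0.0473 CPM with DMSO and 0.28 ± 0.0343 CPM with AZD4573 (SD, n = 3), fell by 1.86 on the log2 scale.

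In the other direction, ETV1 went from 1.02 ± 0.183 to 3.02 ± 0.448 CPM (SD, n = 3), for a log2FC of 1.57 at an adjusted p = 4.4e-06. ELF3, an epithelial ETS factor, had 4, 2 and 2 counts under DMSO and 79, 90 and 79 under AZD4573 (adjusted p = 1.9e-08), so that its rise starts from very few counts and its level reached only 1.48 ± 0.157 CPM (SD, n = 3). Of the MYB paralogs, named here after their values were seen, MYBL1 was higher where MYB was lower under TMM scaling, and MYBL2 changed little. MYBL1 was at 59.1 ± 1.9 CPM with DMSO and 84.2 ± 3.88 CPM with AZD4573 (SD, n = 3), for a log2FC of 0.51 at an adjusted p = 6.1e-07. MYBL2, a proliferation-linked factor, was at 335, 311 and 308 CPM with DMSO and at 334, 342 and 353 CPM with AZD4573, and the groups overlap. Its log2FC was 0.11 at an adjusted p = 0.041. Scaled to the mitochondrial mRNAs, both MYB paralogs turned negative, MYBL1 to -0.23 (adjusted p = 0.0024) and MYBL2 to -0.63 (adjusted p = 3.4e-08). ETV1 (0.83, adjusted p = 0.00052) and ELF3 (4.58, adjusted p = 1.1e-08) stayed higher with that scaling.

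Partners and cofactors of these factors were mostly lower. Of 13 listed, 10 were tested. All 10 passed an adjusted p of 0.05, as 7 fell and 3 rose (37.4% and 37.3% of all genes tested), and their median log2FC was -0.78. With a fold change of at least 1.5, 6 were lower and 0 higher (23.7% and 22.7% of all genes), and 7 and 0 when scaled to the mitochondrial mRNAs (53.4% and 10% of all genes). TLE4, a Groucho corepressor that RUNX proteins recruit, was at 15.5, 14.9 and 15.4 CPM with DMSO and at 6.09, 5.81 and 4.21 CPM with AZD4573, for a log2FC of -1.51 ± 0.114 (SE) at an adjusted p = 4.3e-08. CREBBP, the acetyltransferase that MYB binds, went from 102 ± 3.69 to 43.8 ± 1.47 CPM (SD, n = 3), for a log2FC of -1.22 at an adjusted p = 1.6e-10. Its paralog EP300, named after its value was seen, had a log2FC of -1.08 at an adjusted p = 2.8e-09.

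The largest positive changes among the partners were smaller. HIPK2, a kinase that phosphorylates RUNX1, had a log2FC of 0.39 at an adjusted p = 1.5e-06. Scaled to the mitochondrial mRNAs, HIPK2 turned to -0.34 and GABPB2 to -0.41. The alternative beta subunits of GABP, which supply the activation domain to GABPA, moved in opposite directions under TMM scaling. GABPB2 was at 38.6, 42.1 and 40 CPM with DMSO and at 52.8, 48.8 and 50.1 CPM with AZD4573, for a log2FC of 0.33 at an adjusted p = 9.0e-05. GABPB1, named after its values were seen, was at 35.6, 34.3 and 34.7 CPM with DMSO and at 19.9, 19.5 and 21.8 CPM with AZD4573, for a log2FC of -0.77 at an adjusted p = 5.6e-08. With DMSO GABPB2 was at 40.3 ± 1.78 CPM and GABPB1 at 34.9 ± 0.645 CPM, and with AZD4573 they were at 50.6 ± 2.07 and 20.4 ± 1.24 CPM (SD, n = 3).

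Genes with described ETS, RUNX or MYB binding sites were more often higher than lower under TMM scaling. Of 21 listed, 17 were tested. An adjusted p of 0.05 was passed by 3 that fell and 12 that rose (37.4% and 37.3% of all genes tested), and the median log2FC was 0.57. With a fold change of at least 1.5, 2 were lower and 7 higher (23.7% and 22.7% of all genes). Scaled to the mitochondrial mRNAs, 4 were lower and 0 higher (53.4% and 10% of all genes), so that these counts depend on the scaling. Single genes differed in this. ZBTB7B (0.36, adjusted p = 0.00015) and TRAC (0.31, adjusted p = 0.00034) stayed higher under that scaling, at less than 1.5-fold. TRBC1 (0.21) and BCL2 (0.2) also stayed higher. LCK (-0.63), MYC (-0.58), TRBC2 (-0.5), ITGAL (-0.21) and ADA (-0.17) turned from higher to lower. CD4 (0.13), GATA3 (-0.01) and ITGB2 (-0.03) no longer passed the test. Of these, all but ZBTB7B and TRAC were named after their values were seen. ZBTB7B, the CD4 lineage factor whose silencer RUNX proteins bind, went from 24.3 ± 0.542 to 52.3 ± 3.45 CPM (SD, n = 3), for a log2FC of 1.11 at an adjusted p = 1.6e-09. TRAC, the constant region of the T-cell receptor alpha chain, whose enhancer holds sites for ETS and RUNX proteins, went from 56.4 ± 1.2 to 116 ± 2.31 CPM (SD, n = 3), for a log2FC of 1.04 at an adjusted p = 2.1e-10.

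Among the lower genes, PRF1, which encodes the cytotoxic protein perforin, was at 172, 168 and 162 CPM with DMSO and at 107, 108 and 104 CPM with AZD4573, for a log2FC of -0.65 ± 0.0423 (SE) at an adjusted p = 9.8e-09. IL2RB, a receptor chain for interleukin signals with an ETS site in its promoter, went from 74.5 ± 0.815 to 54.7 ± 2.69 CPM (SD, n = 3), for a log2FC of -0.44 at an adjusted p = 2.0e-06. The third, IL7R, was named after its values were seen and had a mean of only 0.585 CPM with DMSO, with 48, 43 and 41 counts there and 4, 8 and 7 counts with AZD4573.

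**Figure D4:**
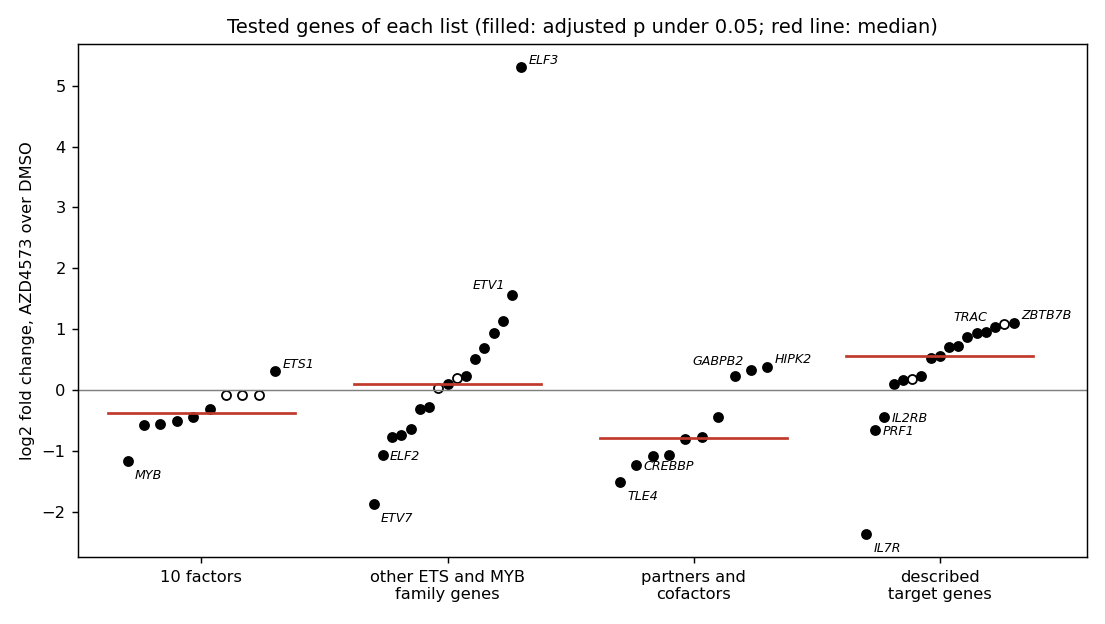
Log2 fold change of AZD4573 over DMSO under TMM scaling (y axis) for the tested genes of 4 lists (x axis), with genes at an adjusted p under 0.05 filled, others open, and the median of each list as a red line. The medians are -0.37 for the 10 factors, 0.11 for other ETS and MYB family genes, -0.78 for partners and cofactors and 0.57 for described target genes, where all genes tested have 0.03.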

How the data were processed

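Bulk RNA-seq libraries of H9 cells (3 DMSO, 3 AZD4573) were grouped by their titles. The exposure was 4 h by the labels, whereas the discussion of the study gives 6 h. The authors trimmed reads with Cutadapt 2.3, aligned them to GRCh38 with STAR 2.7.8a and deposited expected counts per gene from RSEM 1.3.3, in whole numbers and without normalization. RSEM was run at default parameters, which ignore strand. Poly(A) RNA is named in the labels, but depletion of rRNA in the supplement. The 5 reporter rows, at 0 counts, were left out.

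Genes passing edgeR's filter (minimum count 10) were TMM-normalized and tested with the quasi-likelihood test in edgeR 4.0.16 (R 4.3.3), with Benjamini-Hochberg adjustment over all genes. CPM values are TMM-normalized, and standard errors are the log2 fold change divided by the square root of F. Called genes had an adjusted p below 0.05 and changed 1.5-fold or more. Lengths and positions are from GENCODE release 44 on GRCh38, which held 61369 of 61541 gene IDs, and per-kb values use all exon bases of a gene. Ratios were compared by two-sided exact permutation tests. The procedure was tested on simulated data. No libraries of a group were near-identical, since chi-square divided by its degrees of freedom was 5.29 to 19.4 over their pairs.

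The 10 genes and the lists were chosen with earlier results of these data known. A B-cell marker of the lists is not reported here. Genes named from the lists were the 2 largest falls and 2 largest rises with an adjusted p under 0.05 and at least 1 CPM in the higher group. Genes sharing exon bases with the 10 genes, or starting within 1000 bases on the opposite strand, were also named. Of the latter, LINC01436 near RUNX1 had 11 counts over all libraries. Alternatives were RLE factors, library size, mitochondrial scaling, other filters, DESeq2 1.42.0, a replicate block, a fold change of 2 and each library left out.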

Additional observations from a re-analysis of the deposited data

How the results depend on the processing

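MYB was called lower under each alternative run, and the log2 fold changes of FLI1, ELF1, RUNX1, RUNX3 and CBFB kept their direction and stayed past the test in each. The scaling changed the other results most. Scaled to the mitochondrially encoded mRNAs, ETS1 reversed to -0.43, while ETS2 (-0.81), GABPA (-0.82) and RUNX2 (-0.81) passed the test, and 9 of the 10 genes were called lower. The median over all genes tested moved to -0.71 with it. The same scaling gave 9433 lower and 1769 higher genes in all, 9 lower and 2 higher among other ETS and MYB family genes, and 4 lower and 0 higher among target genes. With library size only, ETS2 (-0.17, adjusted p = 0.01) and GABPA (-0.18, adjusted p = 0.0057) passed the test and 4 of the 10 genes were called lower (ELF1, RUNX3, CBFB and MYB), and without a filter on low counts 3 were (ELF1, CBFB and MYB). With each library left out, between 1 and 2 of the 10 genes were called lower, with ELF1 added without DMSO replicate 3 or AZD4573 replicate 2 and CBFB added without AZD4573 replicate 1. A fold change of at least 2, a stricter rule by construction, left 2450 lower and 2643 higher genes in all, 2 lower and 3 higher family genes, and 1 lower and 2 higher target genes. With at least 10 counts in every library, 1 target gene was called lower, as fewer genes were tested. Replicate numbers showed no pairing (correlations of same-numbered libraries after removing group means of -0.0208, 0.0417 and 0.0316). In a fit with a replicate block, 1 of the 10 genes (MYB) was called lower. Leaving out single libraries moved the difference in the ratio of RUNX to CBFB transcripts between 0.0257 and 0.204 and that in the ETS2 share between -1.95 and -0.574 percentage points, with 0.204 and -0.574 without AZD4573 replicate 1 and 0.0257 and -1.95 without AZD4573 replicate 2. The depth limits the lowest genes, where a count of 0 allows up to 0.0392 CPM in the deepest library and 0.0576 CPM in the shallowest, taken as 3 counts, for counting error only.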
